A study of Mus musculus with 62 samples.

Results

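The genes described here are the core genes of the circadian clock, its regulators and genes that it drives directly, 29 in all. They were chosen by symbol, and each symbol matched 1 of the 55487 gene identifiers in the count table. All 29 were among the 14549 genes that passed the filter on low counts. Poly-A RNA was sequenced from the quadriceps, a thigh muscle, of 62 male mice. Running on a wheel, nicotinamide riboside (NR, a vitamin B3 compound and precursor of NAD) and pterostilbene (PT, a stilbene found in blueberries) were crossed in all combinations, which made 8 groups of 7 or 8 animals. Runners numbered 30 and non-runners 32, NR was given to 31 mice and withheld from 31, and PT was given to 32 and withheld from 30. The title of the series names the NR as intravenous. The sources used here do not give the doses, their duration, the strain, the age, the light schedule or the clock hours. Each mouse was labelled with 1 of 8 days of termination and with noon or morning as its time.

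On every day the running mice carried one time label and the non-running mice the other. The 62 mice therefore fell into 16 sessions, each a day and a running state, of which 14 held 4 mice and 2 held 3. Runners were labelled noon on days 1, 3, 6 and 8 and morning on days 2, 4, 5 and 7. The mice of a session shared their day and their time, so the session was the replicate when times or running states were compared. Each session held at most 1 mouse of each supplement combination, so NR and PT were compared between the mice of 1 session. Days 1 to 4 were cohort 1 and days 5 to 8 were cohort 2.

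The circadian clock is a loop of gene transcription that most cells run on their own. The activator BMAL1 (gene Arntl) pairs with CLOCK or NPAS2 and switches on the Per and Cry genes through E-box sequences, and the PER and CRY proteins then block that pair. A second loop, in which REV-ERB proteins repress and ROR proteins activate, sets the transcription of Arntl, and the factors DBP, TEF and HLF carry the rhythm to further genes through D-box sequences. In skeletal muscle the clock is known to time the use of fuels, and muscle clocks respond to feeding and to exercise.

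Libraries held 5.64 to 30.8 M counts (M for mega), with a median of 14.2 M in the mice labelled noon and 18.7 M in those labelled morning. Levels are in CPM, counts scaled to the same library size with TMM factors. The 8 skeletal muscle markers together took 141000 to 161700 CPM in every session, and none of them was at 0. In bulk muscle, fewer cells of a type and less RNA per cell cannot be told apart.

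The members differed widely in level. Per kilobase of gene length, the mean over the 62 mice was highest for Nr1d1 at 54.2 CPM per kb, followed by Tef at 50.1 and Usp2 at 41.8. It was lowest for Id2 at 1.00, Timeless at 0.71 and Npas2 at 0.15 CPM per kb. Mice of the same session also differed most in Npas2, with a within-session SD of 0.74 on the log2 scale, then in Per1 with 0.50, and least in Tef and Cipc with 0.08 each. Npas2 values, at 0.06 to 3.62 CPM per mouse, therefore rest on few reads.

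Promoter windows, from 250 bases before to 50 bases after an annotated gene start, were read for 23 of the 29 members from RefSeq on GRCm38.p6. Wee1, Btrc, Per2, Bhlhe40, Csnk1a1 and Csnk1d were the members without one. Both strands were searched. The E-box CACGTG was found in 6 of 23 members (26.1%), namely Bhlhe41, Ciart, Cipc, Cry1, Per1 and Tef, against 8.09% of 27025 genes. The related element CACGTT was found in 3 members (13%) against 5.44% of genes, and a D-box, TTATGTAA or TTACGTAA, in 2 members (8.7%) against 1.23%. The ROR element, TAGGTCA or TGGGTCA, was found in 2 members (8.7%), Arntl and Nfil3, against 7.35% of genes. These are matches of letters, and no binding was measured. The 6 windows below belong to genes whose values follow, and capitals mark the matches. Ciart (chr3:95882179-95882478, reverse strand) held 3 E-boxes, 116, 58 and 44 bases before the start. Per1 (chr11:69098699-69098998, forward strand) and Cry1 (chr10:85185005-85185304, reverse strand) held 1 each, and Cry1 also held AACGTG, which is CACGTT on the other strand. Per3 (chr4:151044616-151044915, reverse strand) held 2 D-boxes, Arntl (chr7:113207261-113207560, forward strand) held TAGGTCA 31 bases after the start, and Nfil3 (chr13:52980990-52981289, reverse strand) held the same element on the other strand, written TGACCTA, 12 bases before the start.
Ciart: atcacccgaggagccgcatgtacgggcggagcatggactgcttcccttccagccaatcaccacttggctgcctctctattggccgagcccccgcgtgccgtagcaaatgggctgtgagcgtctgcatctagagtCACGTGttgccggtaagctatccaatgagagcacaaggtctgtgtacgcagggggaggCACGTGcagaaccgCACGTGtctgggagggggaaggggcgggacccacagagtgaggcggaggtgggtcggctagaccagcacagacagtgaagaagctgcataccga
Per1: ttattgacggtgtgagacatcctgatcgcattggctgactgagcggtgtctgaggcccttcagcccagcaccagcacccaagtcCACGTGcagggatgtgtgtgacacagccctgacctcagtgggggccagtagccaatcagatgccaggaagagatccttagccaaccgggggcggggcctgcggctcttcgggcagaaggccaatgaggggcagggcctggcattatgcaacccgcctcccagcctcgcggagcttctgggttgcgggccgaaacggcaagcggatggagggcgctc
Cry1: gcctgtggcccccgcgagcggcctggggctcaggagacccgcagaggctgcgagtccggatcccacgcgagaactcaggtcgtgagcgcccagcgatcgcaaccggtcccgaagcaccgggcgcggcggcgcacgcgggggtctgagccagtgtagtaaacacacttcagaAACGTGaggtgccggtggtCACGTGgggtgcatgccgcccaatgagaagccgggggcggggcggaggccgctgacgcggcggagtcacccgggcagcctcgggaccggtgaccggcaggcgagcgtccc
Per3: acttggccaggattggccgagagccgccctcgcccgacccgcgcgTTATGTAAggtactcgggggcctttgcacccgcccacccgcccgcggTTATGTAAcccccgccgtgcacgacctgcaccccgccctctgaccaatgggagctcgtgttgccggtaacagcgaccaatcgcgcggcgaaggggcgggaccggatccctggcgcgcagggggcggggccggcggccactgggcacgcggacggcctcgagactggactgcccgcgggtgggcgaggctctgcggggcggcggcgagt
Arntl: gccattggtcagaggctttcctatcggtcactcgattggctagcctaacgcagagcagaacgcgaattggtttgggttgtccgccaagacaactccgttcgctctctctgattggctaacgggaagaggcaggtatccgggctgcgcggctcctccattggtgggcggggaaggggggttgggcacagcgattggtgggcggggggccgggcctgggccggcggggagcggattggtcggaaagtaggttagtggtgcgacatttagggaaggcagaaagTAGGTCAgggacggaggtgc
Nfil3: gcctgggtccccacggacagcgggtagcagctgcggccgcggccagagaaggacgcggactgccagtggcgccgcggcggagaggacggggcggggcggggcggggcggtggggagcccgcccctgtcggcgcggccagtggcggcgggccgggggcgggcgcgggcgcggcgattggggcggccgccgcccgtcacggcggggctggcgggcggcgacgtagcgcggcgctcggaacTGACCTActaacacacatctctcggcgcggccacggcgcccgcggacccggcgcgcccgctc

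The first question was how the clock genes differed between the 2 times of termination. On 6 of the 8 days they differed in one and the same way, and on days 2 and 3 in the opposite way. Within a day, 17 of 29 members had the same sign of noon minus morning on days 1, 4, 5, 6, 7 and 8. Of these 17, 16 had the opposite sign on both day 2 and day 3, and Noct was the exception. For Arntl the difference lay between 1.22 and 1.86 on the log2 scale on the 6 days, and was -1.45 on day 2 and -1.90 on day 3. For Per2 it lay between -1.62 and -1.18 on the 6 days, and was 1.13 on day 2 and 1.68 on day 3. For these 2 genes the sizes on days 2 and 3 were close to those of the other days, with the sign turned. Other members varied more over the 6 days, such as Npas2, at 0.89 to 3.16, and Nfil3, at 0.11 to 0.85. Within a day, noon minus morning is also a difference between running states, and the values of these 2 genes split by it. On days 1, 6 and 8, with runners labelled noon, Npas2 had 3.16, 2.66 and 2.96 and Nfil3 0.11, 0.30 and 0.38. On days 4, 5 and 7, with runners labelled morning, Npas2 had 0.89, 1.27 and 1.44 and Nfil3 0.78, 0.63 and 0.85.

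**Figure D1:**
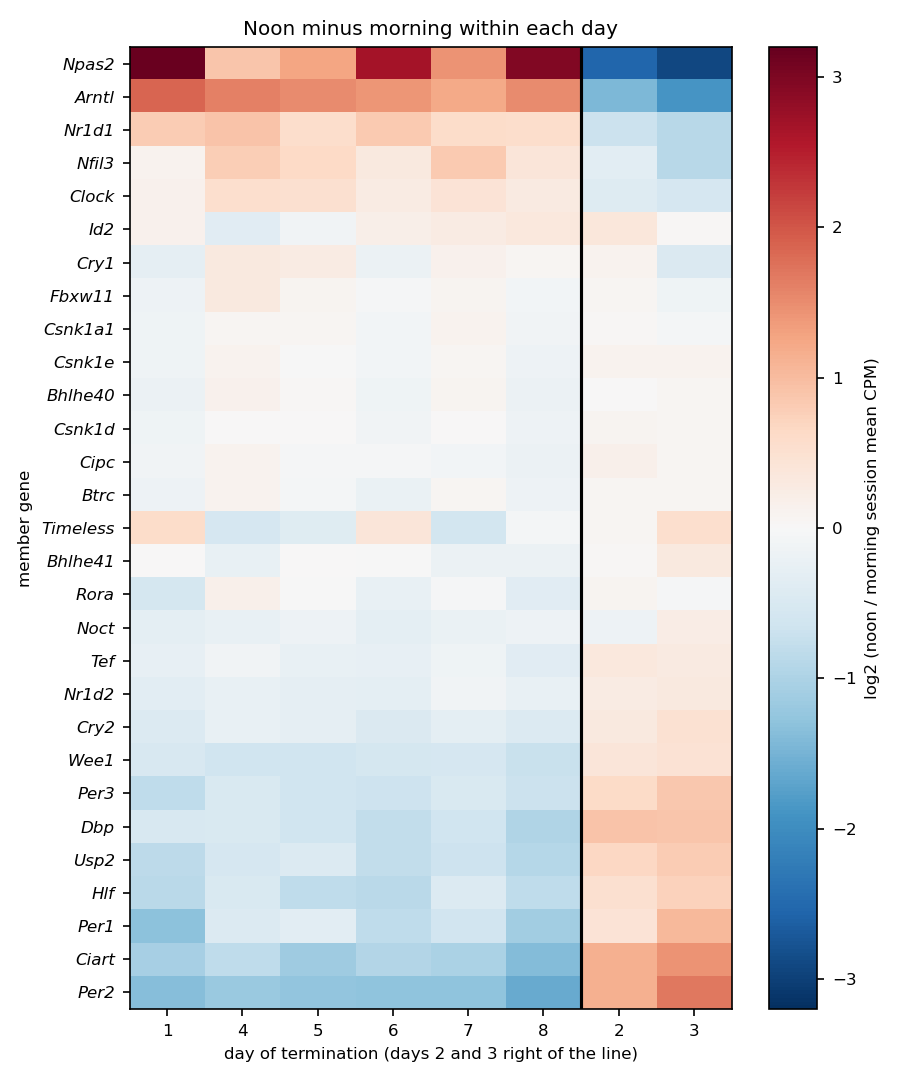
The heat map shows, for each of the 29 members (rows) and each day (columns), the log2 ratio of the mean CPM in the session labelled noon to that in the session labelled morning, with days 2 and 3 right of the black line. Red stands for higher at noon and blue for lower; Arntl is red at 1.22 to 1.86 on the 6 days at the left and blue at -1.45 and -1.90 on days 2 and 3, and 15 other members also turn their sign on both days.

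The turned sign was not particular to the clock genes. Across all 14549 genes, 776 had 1 sign on the 6 days, and 537 of these had the opposite sign on both days 2 and 3 while 33 kept it on both. Of the 414 genes outside the list that were called for time without those days, 406 (98.1%) had the opposite sign over days 2 and 3. Differences by running mostly kept their sign. Of 1419 genes called for running without days 2 and 3, 1295 (91.3%) had the same sign in the mean over those 2 days, in which time cancels because runners were labelled morning on day 2 and noon on day 3. Among the 11 members called in that way, 7 had the same sign and 4 the opposite one. The noon and morning labels of days 2 and 3 may be exchanged, and the files hold no other record of the time that would settle it. If they are, the fit of time to all 8 days averages opposite differences, and the time term in the fit of running is wrong on those 2 days. The values below are given by label, with days 2 and 3 apart, and higher or lower at noon refers to the labels of the other 6 days. Which of these 2 sets of days carries the right labels was not tested.

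With all 8 days in the fit, no member and no gene was called for time (edgeR quasi-likelihood test on session sums with day and running as terms, 0% of 14549 genes). At an unadjusted p under 0.05 there were 387 genes and 1 member, Noct, and DESeq2 also called 0 members. Without days 2 and 3, 18 of 29 members were called, against 2.97% of all genes: 5 rose, against 1.64% of genes, and 13 fell, against 1.33%. The median log2 change over the 29 members was -0.07 and that over all genes was 0.00. The 2 days were singled out by the values of these same genes, so this count is not independent of that choice. Cohort 2 holds neither of the 2 days and all 4 of its days were used, but setting it apart was also done with these values known. In cohort 2 alone 17 members were called, against 2.04% of genes, 5 higher and 12 lower at noon, and they were the same members except Noct. Cohort 1 alone, with days 2 and 3 as labelled, gave 0 called members and 0% of genes, with 181 genes and 0 members at an unadjusted p under 0.05.

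**Figure D2:**
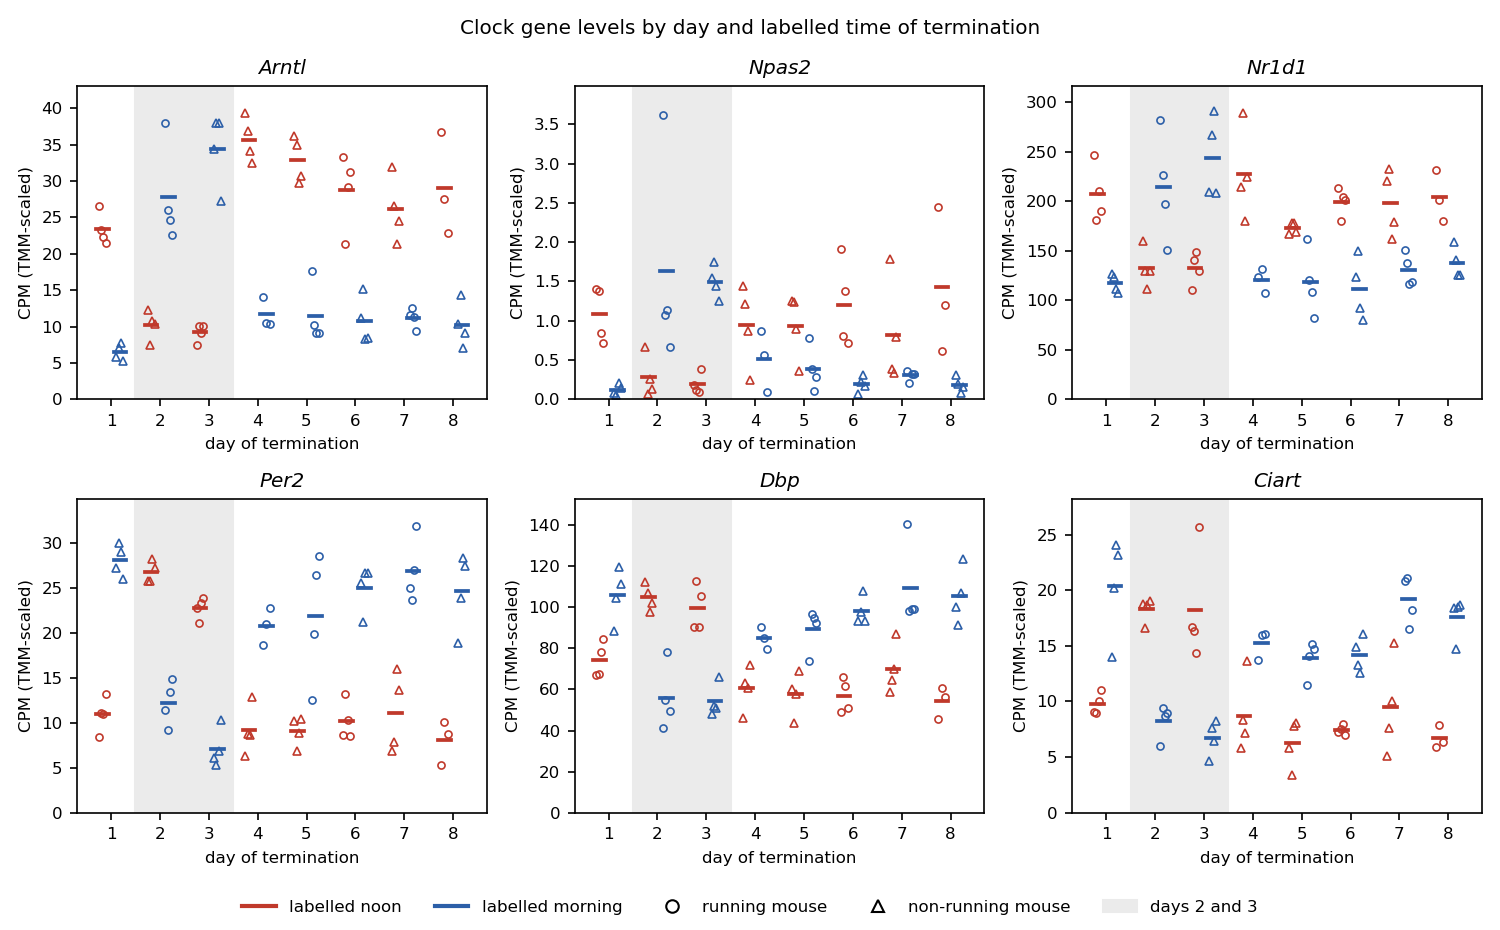
Each point is the level of 1 mouse in CPM and each bar the mean of its session, by day of termination, in red for mice labelled noon and in blue for mice labelled morning, with circles for running and triangles for non-running mice and days 2 and 3 shaded. The red bars of Arntl stand at 23.4 to 35.7 CPM and the blue bars at 6.47 to 11.7 CPM outside the shaded days, and inside them red and blue change places.

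All 3 activators were higher at noon on the 6 days. Arntl (ENSMUSG00000055116, chr7:113207465-113314126 on mm10, forward strand), which encodes BMAL1, had session means of 23.4 CPM at the lowest, 28.9 at the median and 35.7 at the highest in the 6 noon sessions, against 6.47, 11 and 11.7 CPM in the 6 morning sessions. The sessions did not overlap, and neither did single mice: the lowest of 23 noon mice had 21.3 CPM and the highest of 23 morning mice 17.7 CPM. Arntl was the 1 gene of all those tested (0.00687%) for which that held. Its fitted log2 change was 1.50 ± 0.06 (SE, adjusted p = 4.88e-09). On day 2 the session labelled noon had 10.2 CPM against 27.8 CPM in that labelled morning, and on day 3 the values were 9.23 CPM against 34.4 CPM. Both values labelled noon thus lay in the morning range of the other days, and both values labelled morning in the noon range.

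Npas2, a CLOCK paralogue that can take its place, had 0.83, 1.01 and 1.42 CPM (lowest, median, highest) in the noon sessions, against 0.12, 0.25 and 0.51 CPM in the morning sessions. The 2 sets of sessions did not overlap, but single mice did. Its log2 change was 1.96 ± 0.19 (SE, adjusted p = 4.21e-06), the largest in size among the members. Clock itself moved less, at 46.8 ± 3.99 CPM at noon against 36.3 ± 1.11 CPM in the morning (SD, n = 6 sessions each), a log2 change of 0.37 ± 0.04 (adjusted p = 5.9e-06).

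Among the repressors, changes ran the other way or were not called. Of the 10 genes of this arm, 5 fell at noon without days 2 and 3, none rose and 5 were not called. Per2 (ENSMUSG00000055866), one of the genes that carry the negative limb of the loop, had 8.02, 9.67 and 11.1 CPM in the noon sessions, against 20.8, 24.8 and 28.1 CPM in the morning sessions. The sessions did not overlap, and the log2 change was -1.34 ± 0.05 (SE, adjusted p = 2.67e-11). On day 2 Per2 had 26.7 CPM in the session labelled noon against 12.2 CPM in that labelled morning, and on day 3 it had 22.8 CPM against 7.12 CPM.

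Ciart, which encodes a repressor of the CLOCK and BMAL1 pair and holds the 3 E-boxes printed above, had 6.27, 8.08 and 9.77 CPM at noon against 13.9, 16.4 and 20.4 CPM in the morning. Its log2 change was -1.04 ± 0.07 (adjusted p = 3.46e-07). Per1 had 37.5, 48.3 and 56.9 CPM at noon against 67.2, 79.9 and 107.6 CPM in the morning, a log2 change of -0.71 ± 0.07 (adjusted p = 0.00179). The sessions of both genes did not overlap. Per1 also answers to glucocorticoids and to acute stimuli, and its mice spread more widely within a session than those of Per2. Per3, whose window held the D-boxes, had 35.7, 38.3 and 42.3 CPM at noon against 49.6, 59.6 and 68.7 CPM in the morning, a log2 change of -0.63 ± 0.04 (adjusted p = 8.21e-08).

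The 2 cryptochromes differed from each other. Cry2 had 52.8 ± 2.01 CPM at noon against 68.2 ± 4.26 CPM in the morning (SD, n = 6 sessions each), a log2 change of -0.38 ± 0.03 (adjusted p = 1.86e-06), with no overlap. Cry1, which is known to peak later than the other repressors, had 14.5, 16.4 and 18.7 CPM at noon against 13.8, 15.5 and 18.9 CPM in the morning. Its sessions overlapped, and its log2 change of 0.04 ± 0.05 was not called (adjusted p = 0.913). The other repressors that were not called were Bhlhe40 and Bhlhe41, E-box binding factors, Cipc, which binds CLOCK, and Timeless, a gene with a role in DNA replication. Their log2 changes lay between -0.11 and -0.04.

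In the REV-ERB and ROR arm 2 genes rose and 2 fell. Nr1d1 (ENSMUSG00000020889), which encodes REV-ERB alpha, a repressor of Arntl, had 173.0, 201.8 and 227.0 CPM at noon against 111.4, 119.4 and 137.8 CPM in the morning, with no overlap. Its log2 change was 0.72 ± 0.06 (adjusted p = 5.59e-05). Nr1d2, the gene of REV-ERB beta, went the other way, at 150.6 ± 6.71 CPM at noon against 179.7 ± 3.97 CPM in the morning (SD, n = 6 sessions each), a log2 change of -0.25 ± 0.04 (adjusted p = 0.000364). Nfil3, a repressor that binds the same D-boxes as DBP, rose by 0.48 ± 0.04 (adjusted p = 3.35e-06), and Rora, an activator of Arntl, fell by 0.19 ± 0.04 on the log2 scale (adjusted p = 0.0162). The sessions of Nfil3 and of Rora overlapped. Nr1d1 overlaps Thra on the opposite strand, and whether the counting used strand is not stated, so their reads may be mixed. Thra had a log2 change of 0.09 between the same sessions (adjusted p = 0.403).

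All 3 PAR bZIP factors, the activators that bind D-boxes, fell at noon. Dbp had 54.3, 59.1 and 74.4 CPM at noon against 85.1, 101.9 and 109.4 CPM in the morning, with no overlap and a log2 change of -0.67 ± 0.04 (adjusted p = 4.67e-07). Hlf had 17.7, 19.1 and 22.2 CPM at noon against 28.7, 31.4 and 35.5 CPM in the morning, with no overlap and a log2 change of -0.72 ± 0.05 (adjusted p = 2.97e-07). Tef, of which there was more per kilobase than of the other 2, moved least, by -0.24 ± 0.03 (adjusted p = 0.000476). The gene Sphk2 overlaps Dbp on the opposite strand at 13.8 CPM, and it rose at noon by 0.51 on the log2 scale (adjusted p = 2.88e-06), against the direction of Dbp.

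Of 4 output genes 3 fell. Usp2, a deubiquitinase with a strong daily rhythm, had 135.6, 155.6 and 162.5 CPM at noon against 215.4, 251.4 and 289.7 CPM in the morning, with a log2 change of -0.69 ± 0.03 (adjusted p = 3.22e-09). Wee1, a kinase that holds back entry into mitosis, had 4.29, 4.46 and 4.81 CPM at noon against 6.45, 6.72 and 7.37 CPM in the morning, with a log2 change of -0.59 ± 0.06 (adjusted p = 1.22e-05). The sessions of neither gene overlapped. Noct, which encodes a phosphatase of NADP cofactors, fell by 0.20 ± 0.05 (adjusted p = 0.0329), and Id2, an inhibitor of bHLH factors, was not called at 0.07 ± 0.10 (adjusted p = 0.917).

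None of the 5 kinase and ubiquitin ligase genes, which act on the PER and CRY proteins after translation, was called for time. Csnk1d, Csnk1e and Csnk1a1 (casein kinases) and Btrc and Fbxw11 (beta-TrCP proteins) had log2 changes between -0.06 and 0.03, with the smallest adjusted p = 0.519. The sessions of all 5 overlapped. Across the 29 members, 16 had noon and morning sessions that did not overlap on the 6 days, against 1.53% of all genes, 4 of them higher and 12 lower at noon. In cohort 2 alone, with 4 sessions of each time, 18 members did not overlap, against 5.84% of all genes.

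**Figure D3:**
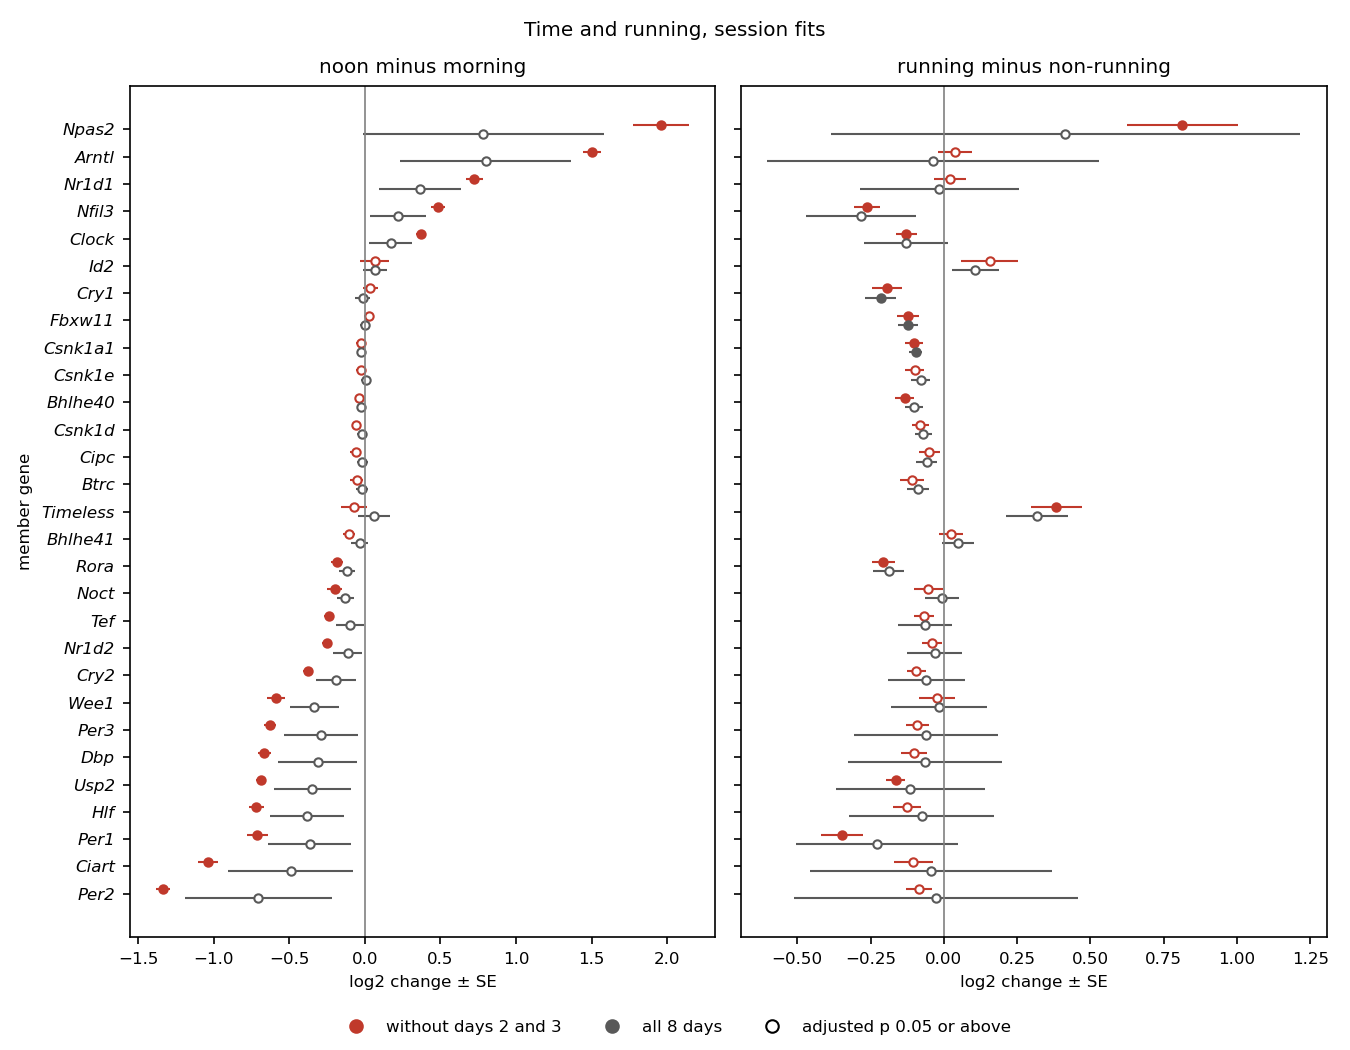
Fitted log2 changes with their SE for the 29 members, noon minus morning at the left and running minus non-running at the right, in red without days 2 and 3 (12 sessions) and in grey with all 8 days (16 sessions); filled points have an adjusted p under 0.05. For time 18 red points and no grey point are filled, and for running 11 red and 3 grey points.

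The difference by time was present in runners and in non-runners. Without days 2 and 3 each running state had 3 noon and 3 morning sessions, on different days. In runners 13 members were called, against 0.454% of genes, and in non-runners 13, against 2.25%. Arntl had 23.4, 28.7 and 29.03 CPM in the runners' noon sessions against 11.2, 11.5 and 11.7 CPM in their morning sessions, a log2 change of 1.22 ± 0.08 (adjusted p = 0.000487). In non-runners it had 26.1, 32.9 and 35.7 CPM at noon against 6.47, 10.2 and 10.8 CPM in the morning, a log2 change of 1.78 ± 0.26 that was not called (adjusted p = 0.126). The value in non-runners was the larger of the pair and had the wider error. Npas2 changed by 1.57 ± 0.26 in runners (adjusted p = 0.0384) and by 2.34 ± 0.26 in non-runners (adjusted p = 0.000116). The test of the difference between the running states called no member and 0% of genes in edgeR, with 802 genes and 2 members, Id2 and Bhlhe41, at an unadjusted p under 0.05. For Arntl that difference was -0.55 ± 0.25 (adjusted p = 0.882) and for Npas2 -0.76 ± 0.37 (adjusted p = 0.882). DESeq2 with all 8 days also called no member for it. The fits within a running state and the test of their difference had cohort as a term, not day. That difference cannot be told apart from a contrast between days.

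In cohort 2 alone, Arntl changed by 1.42 ± 0.06, Per2 by -1.38 ± 0.05, Dbp by -0.74 ± 0.03 and Nr1d1 by 0.66 ± 0.07 on the log2 scale. Without days 2 and 3, the test of a difference between cohorts called no member and 0% of genes in edgeR, with 860 genes at an unadjusted p under 0.05. Among the members 2 passed that unadjusted level, Dbp at -0.22 ± 0.07 and Arntl at -0.26 ± 0.10 (adjusted p = 0.824 for both).

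The calls for running depended on the days that entered, with 3 members called with all 8 days and 11 without days 2 and 3. With all 8 days and time as a term, 3 of 29 members were called, all lower in runners, against 8.76% of all genes and 3.57% lower. A share of 3 in 29 is near that background. Over the 29 members 4 changes were above 0 and the median was -0.06, against a median of 0.00 over all genes. Cry1 had 12.9, 14.8 and 16.5 CPM (lowest, median, highest) in the 8 running sessions against 15.5, 17.5 and 18.9 CPM in the 8 non-running sessions, a log2 change of -0.22 ± 0.05 (adjusted p = 0.0229). Its sessions overlapped, and it was lower in runners on 7 of 8 days.

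Both other called genes were among the 5 kinase and ubiquitin ligase genes. The other genes of that group, Csnk1d, Csnk1e and Btrc, were not called, and none of the 5 changes was above 0. Csnk1a1, casein kinase 1 alpha, had 221.0, 227.5 and 238.4 CPM in running sessions against 234.8, 243.3 and 253.0 CPM in non-running sessions, a log2 change of -0.10 ± 0.02 (adjusted p = 0.019). Fbxw11, a beta-TrCP protein, had 71.8, 74.1 and 79.1 CPM against 77.2, 81.1 and 88.8 CPM, a log2 change of -0.12 ± 0.03 (adjusted p = 0.0401). The sessions of each overlapped, and each was lower in runners on all 8 days. These calls were close to the threshold: without any 1 of days 1, 4, 5, 6 or 7 only 1 member was called, and without day 2 there were 5. DESeq2 called 6 members, these 3 with Rora, Bhlhe40 and Timeless.

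**Figure D4:**
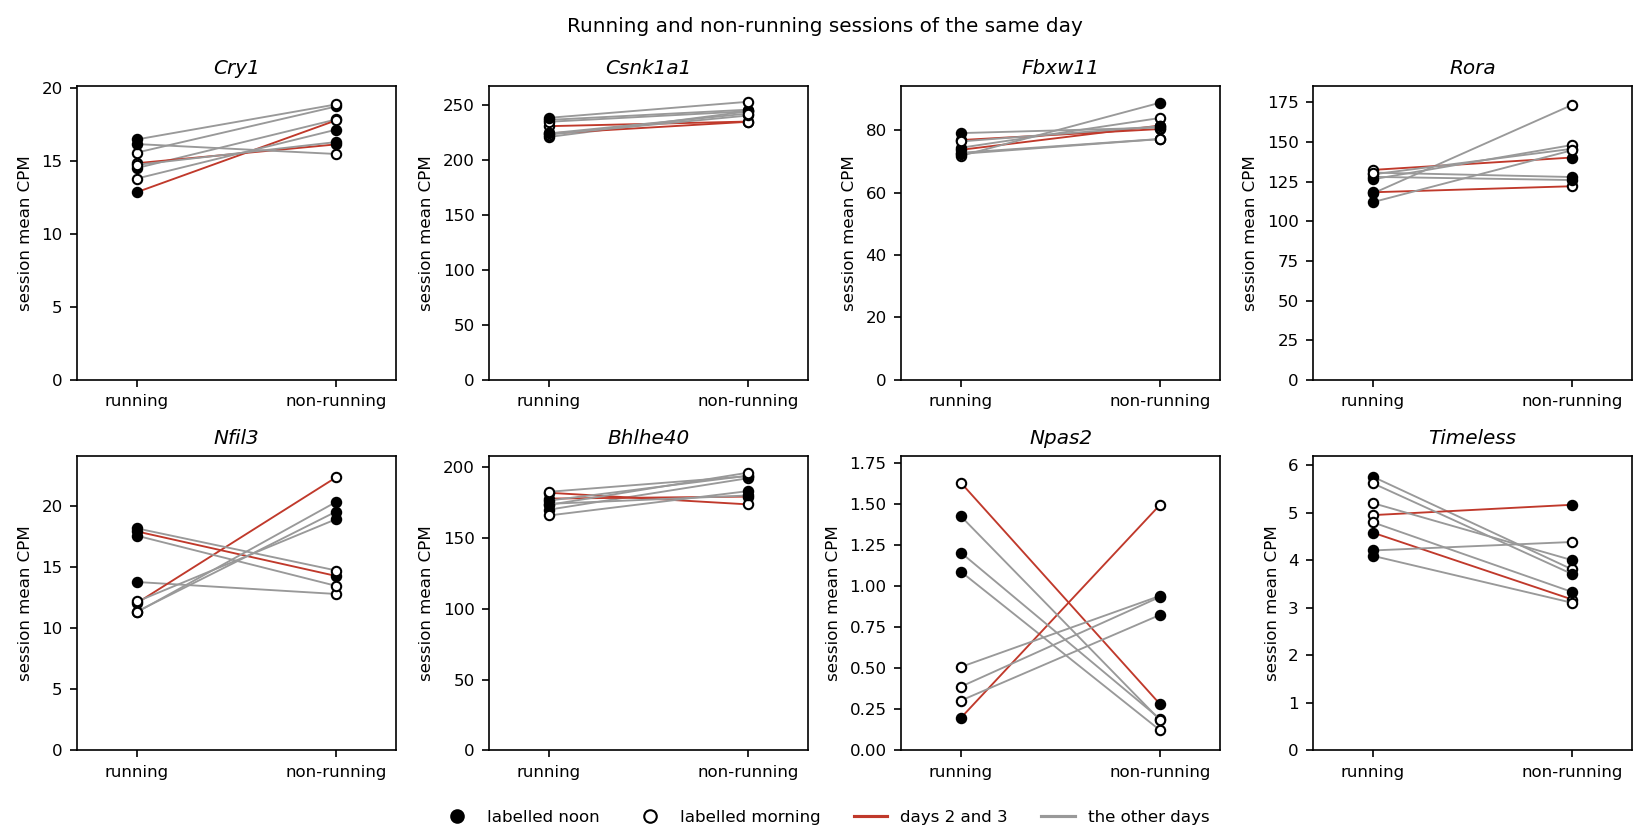
Mean CPM of each running (left) and non-running (right) session, joined by a line for sessions of the same day, in red for days 2 and 3 and in grey for the other days, with filled points for sessions labelled noon and open points for those labelled morning. The lines of Csnk1a1 and Fbxw11 rise to the right on all 8 days. Those of Npas2 are higher at the session labelled noon on the other days, and at that labelled morning on days 2 and 3.

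Without days 2 and 3, 11 members were called for running, against 9.75% of all genes: 9 were lower in runners, against 3.45% of genes, and 2 were higher, against 6.30%. The 9 lower were Clock, Per1, Cry1, Rora, Nfil3, Bhlhe40, Csnk1a1, Fbxw11 and Usp2, from -0.35 ± 0.07 for Per1 (adjusted p = 0.0247) to -0.10 ± 0.03 for Csnk1a1 (adjusted p = 0.0468). Nfil3 changed by -0.26 ± 0.04 (adjusted p = 0.00213) and Rora by -0.21 ± 0.04 (adjusted p = 0.00525). The 2 higher were Npas2, at 0.81 ± 0.19 (adjusted p = 0.0135), and Timeless, at 0.38 ± 0.09 (adjusted p = 0.0117). Sessions of the 2 running states at 1 labelled time came from different days, so comparing their ranges does not hold the day equal. At each labelled time the 3 running and the 3 non-running sessions of Npas2 did not overlap. It had 1.09, 1.20 and 1.42 CPM in runners against 0.83, 0.93 and 0.94 CPM in non-runners at noon. In the morning it had 0.30, 0.39 and 0.51 CPM in runners against 0.12, 0.18 and 0.19 CPM in non-runners. Timeless had 4.09, 4.20 and 5.75 CPM in runners against 3.33, 3.71 and 4.00 CPM in non-runners at noon, and in the morning it had 4.79, 5.20 and 5.61 CPM against 3.10, 3.80 and 4.38 CPM. Nfil3 had 13.8, 17.5 and 18.1 CPM in runners against 18.9, 19.5 and 20.3 CPM in non-runners at noon, and in the morning it had 11.3, 11.4 and 12.2 CPM against 12.8, 13.4 and 14.7 CPM. In all, 7 of 29 members had running and non-running sessions that did not overlap at either time, in 1 direction, against 6.17% of all genes: Npas2 and Timeless were higher, and Clock, Per1, Nfil3, Bhlhe40 and Csnk1a1 lower. Of the other members called, Rora and Fbxw11 overlapped at noon, and Cry1 and Usp2 at both times. Of the 11 members, 7 had the same sign in the mean over days 2 and 3, against 91.3% of all genes called for running without those days. The 4 of opposite sign were Npas2, at -0.19 over days 2 and 3, Per1 at 0.31, Usp2 at 0.08 and Bhlhe40 at 0.03. In cohort 2 alone 5 members were called, against 3.24% of genes, and all 5 (Per1, Rora, Dbp, Nfil3 and Usp2) were lower in runners.

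Some markers of other cell types were higher in runners, while the summed levels of all 8 marker lists overlapped between running and non-running sessions. The 4 endothelial markers together had 259.6 ± 32.1 CPM in running sessions (220.2 to 316.7) against 211.5 ± 11.3 CPM in non-running sessions (192.0 to 226.9), and 3 of the 4 were called higher in runners, against 5.2% of all genes. The 4 fibroblast markers had 1073 ± 119.7 CPM against 907.6 ± 78.8 CPM, the smooth muscle and pericyte markers 409.5 ± 30.8 CPM against 362.8 ± 26.3 CPM, and the macrophage markers 73.2 ± 10.6 CPM against 64.1 ± 5.38 CPM (SD, n = 8 sessions each). Of the 4 markers in each of these lists, 2 fibroblast, 2 smooth muscle and pericyte and 1 macrophage marker were called higher. The adipocyte markers had 103.8 ± 41.4 CPM against 110.3 ± 32.3 CPM and the Schwann cell markers 34.4 ± 3.91 CPM against 37.8 ± 2.89 CPM, with none called, and the erythrocyte markers had 86.9 ± 14.1 CPM against 81.1 ± 17.9 CPM, with 1 of 3 called higher. No marker was at 0 in all mice. Within the skeletal muscle list Myh1 rose by 0.68 ± 0.10 on the log2 scale (adjusted p = 0.0131), and 3 of 8 fell: Myh4 by 0.12 ± 0.03 (adjusted p = 0.0202), Pygm by 0.09 ± 0.02 (adjusted p = 0.0299) and Tnnt3 by 0.09 ± 0.03 (adjusted p = 0.0495). These running calls used all 8 days. Without days 2 and 3, 1 of the 8 skeletal muscle markers was called higher in runners and 0 lower. All 4 endothelial markers were then called higher, against 6.30% of all genes. Of the 4 adipocyte markers 1 was called lower, against 3.45% of all genes, and of the 3 erythrocyte markers 0 were called. The part of these shifts in the running results was not tested. Between noon and morning the summed levels of all 8 marker lists overlapped, and of the endothelial genes Kdr was called, at 0.43 ± 0.05 on the log2 scale without days 2 and 3 (adjusted p = 5.59e-05).

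With the filter on low counts neither supplement gave a call among the clock genes, while without it NR called 2 members and PT none. For NR 0 of 29 members were called, against 0.0206% of all genes, and for PT 0 of 29, against 0% (edgeR, mice compared within sessions); DESeq2 also called 0 members for each. Without days 2 and 3 NR again called 0 members, against 0.0275% of genes. At an unadjusted p under 0.05 with all 8 days there were 868 genes and 4 members for NR and 604 genes and 1 member for PT. The mean Per2 level was 16.3 ± 7.83 CPM among the 31 NR mice, against 18.2 ± 8.70 CPM among the 31 mice not given NR (SD), and these spreads include the difference between the times. Within sessions it changed by -0.21 ± 0.07 with NR (SE, adjusted p = 0.538). The other 3 were Arntl at 0.17 ± 0.07 (adjusted p = 0.699), Hlf at -0.12 ± 0.05 (adjusted p = 0.634) and Dbp at -0.10 ± 0.05 (adjusted p = 0.827). For PT it was Id2, with 2.29 ± 0.63 CPM in 32 mice with PT and 2.59 ± 0.66 CPM in 30 without, a change of -0.19 ± 0.09 (adjusted p = 1). With the filter, none of the 4 interactions among running, NR and PT called a member or a gene (0% each). Without it, running by NR and the interaction of all 3 called 1 member each. At an unadjusted p under 0.05 they gave 4 members for running by NR and 1 member each for NR by PT, running by PT and the interaction of all 3, with 350 to 518 genes, and DESeq2 called no member for any of them.

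**Figure D5:**
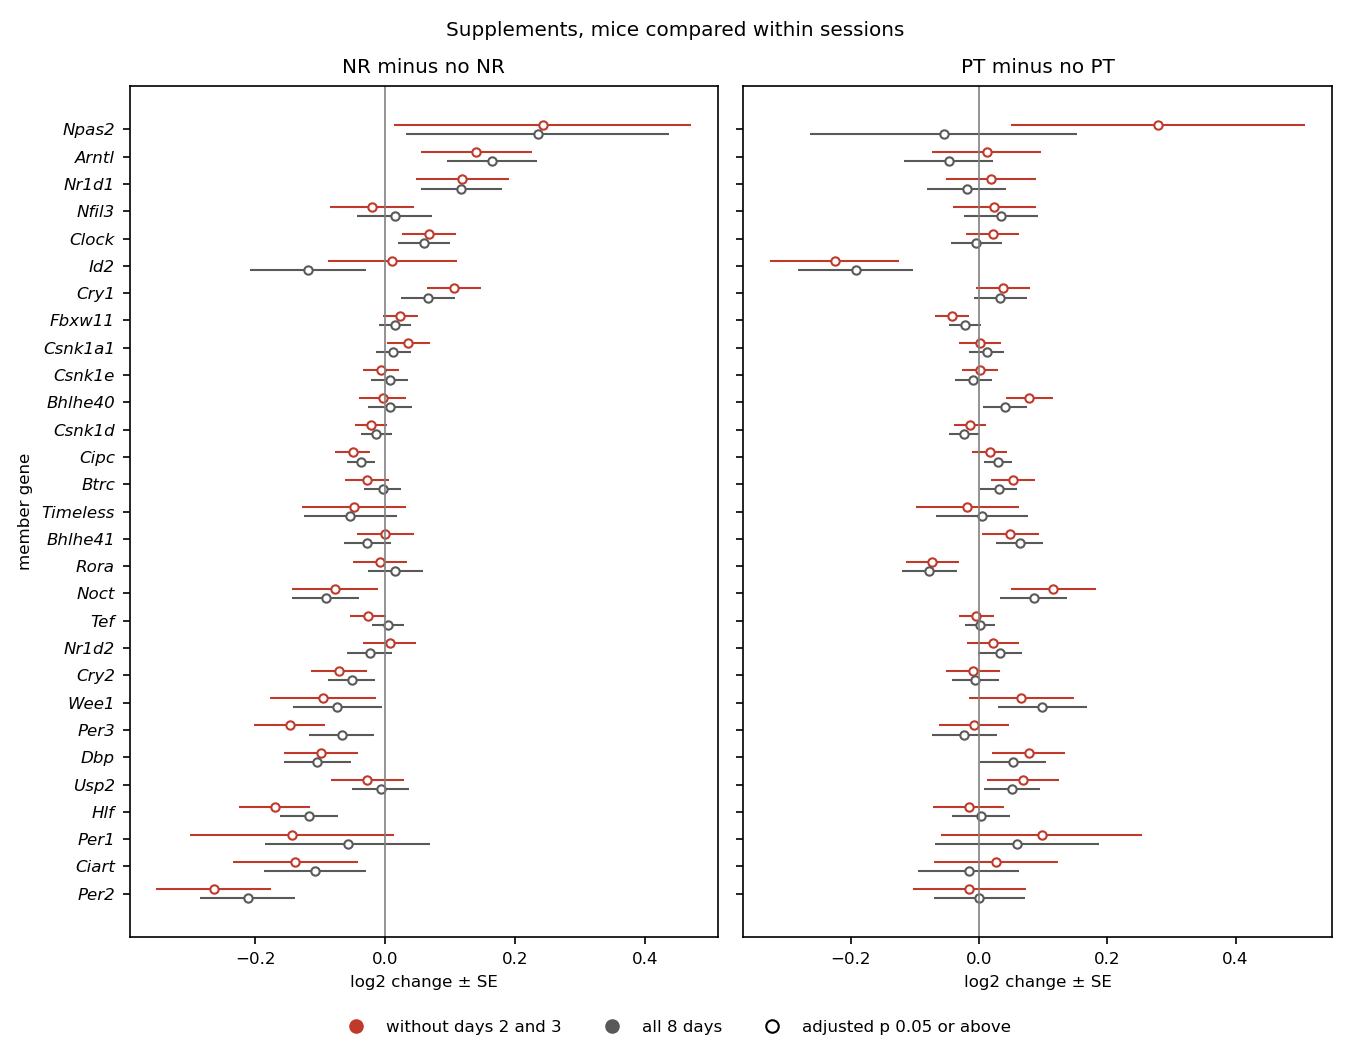
Fitted log2 changes with their SE for the 29 members, NR minus no NR at the left and PT minus no PT at the right, with mice compared within sessions, in red without days 2 and 3 and in grey with all 8 days. Every point for both fits is open, since no adjusted p was under 0.05; Per2 lies at -0.21 and Arntl at 0.17 for NR with all 8 days.

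Of 21 other clock regulators, among them casein kinase 2, GSK3 and AMPK subunits and cryptochrome ligases, 20 were tested and none was called for time, with or without days 2 and 3, in edgeR. For running with all 8 days 2 of them were lower, Sfpq at -0.13 ± 0.03 (adjusted p = 0.0204) and Csnk2b at -0.09 ± 0.03 (adjusted p = 0.0471). A count of 2 in 20 is near the 8.76% of all genes called, of which 3.57% were lower. Of 22 genes known to follow the clock or the time of day, 7 were called for time without days 2 and 3, 5 lower and 2 higher at noon, against 2.97% of all genes, 1.33% lower and 1.64% higher, with a median of -0.09 over the list against 0.00 over all genes. Tspan4 changed by -0.53 ± 0.05 (adjusted p = 3.29e-06), Tcap, a protein of the sarcomere's Z-disc, by -0.30 ± 0.04 (adjusted p = 0.000146) and Coq10b, a coenzyme Q binding protein, by -0.33 ± 0.04 (adjusted p = 0.000284). Leo1 changed by 0.24 ± 0.04 (adjusted p = 0.000863) and Klf9, a target of the glucocorticoid receptor, by -0.16 ± 0.03 (adjusted p = 0.00768). The remaining 2 were Herpud1 and Cdkn1a. The list and the days left out were chosen with earlier results of these data known, so this count is not independent of them. For running with all 8 days, 4 of these 22 were called, 1 higher and 3 lower, against 8.76% of all genes, 5.2% higher and 3.57% lower: Alas1, the first enzyme of heme synthesis, at 0.21 ± 0.03 (adjusted p = 0.00411), Myod1 at -0.35 ± 0.07 (adjusted p = 0.00809), Klf15 at -0.16 ± 0.04 (adjusted p = 0.0344) and Cdkn1a at -0.69 ± 0.16 (adjusted p = 0.045).

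Of 12 genes that respond to acute stress and glucocorticoids, 2 were called for time without days 2 and 3, and both fell, against 1.33% of all genes lower: Per1, as above, and Nr4a1 at -0.24 ± 0.04 (adjusted p = 0.00203). The median over these 12 was -0.19, against 0.00 over all genes. This list too was chosen with earlier results of these data known. For running with all 8 days 1 of 12 was called, Nr4a1 at -0.27 ± 0.06 (adjusted p = 0.0273), against 8.76% of all genes called and 3.57% lower. Without days 2 and 3, 3 of 12 were called for running, Per1 among them, and all 3 were lower. The shares over all genes were then 9.75% called and 3.45% lower.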

How the data were processed

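Poly-A RNA of 62 quadriceps was sequenced. The deposited values are raw read counts per gene, not normalized; per the submitters' processing notes the authors used STAR 2.7.3a, featureCounts 2.0.0 and the mm10 genome. The sources used here do not give the strand setting or the annotation release. All value columns matched a labelled mouse. Symbols were matched for 55394 of 55487 gene identifiers. Libraries held 5.64 to 30.8 M counts; reads are not independent molecules, so depth limits low genes such as Npas2 first.

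Genes were kept with edgeR's filterByExpr (minimum count 10, minimum total 15), which left 14549, and libraries were scaled by TMM. For time and running, counts were summed over the mice of a session and fitted with day, time and running as terms (edgeR 4.0.16, quasi-likelihood test, 6 residual degrees of freedom, 4 without days 2 and 3). Fits of time within 1 running state, and of the difference between running states, had cohort in place of day. For NR and PT, counts per mouse were fitted with session as a term (40 residual degrees of freedom). P-values were adjusted by Benjamini-Hochberg over all genes; calls have an adjusted p under 0.05. The scripts were tested on simulated data. Alternatives used DESeq2 1.42.0, limma 3.58.1, other size factors, no filter, and fits without days, cohorts or terms (R 4.3.3). The numbered replicates of a group were separate mice, and for time and running the session was the replicate. All 29 members are named by rule, with session values for those with large time changes or a running call; of each other list, at most the 5 calls of lowest p are named for a comparison, and Herpud1 and Cdkn1a in addition after their values were seen. The members and lists were chosen with earlier results of these data known, and leaving out days 2 and 3 follows from them too.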

Additional observations from a re-analysis of the deposited data

Results flagged for a closer look

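In groups of 4 sessions that shared a running state and a labelled time, 21 session means of the members stood apart from the other 3 by Dixon's test, and all 21 came from day 2 or day 3. These were 21 of 116 groups searched (18.1%), against 5.51% of the 58196 groups over all genes tested, where 1150 of 3207 such means came from day 2 or day 3. Chance sets such a mark in about 1 in 20 groups on average, but the members share the same mice, so their groups are not independent. Every group of 4 sessions held 1 from day 2 or day 3, so 1 of its 4 means came from those days in any case. The 2 days had already been singled out by these genes.

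In the running mice labelled morning, the day 2 session had 27.8 CPM of Arntl, where the others had 11.2 to 11.7 CPM. The same session had 46.8 CPM of Clock against 35.3 CPM in each of the others, 1.63 CPM of Npas2 against 0.30 to 0.51, and 213.9 CPM of Nr1d1 against 118.1 to 130.8. It also had 17.9 CPM of Nfil3 against 11.3 to 12.2, 56.6 CPM of Cry2 against 64.3 to 65.4, and 145.3 CPM of Nr1d2 against 175.7 to 178.1. The activators, Nr1d1 and Nfil3 were thus high in it, and Cry2 and Nr1d2 low.

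In the non-running mice labelled morning, the day 3 session had 34.4 CPM of Arntl, where the others had 6.47 to 10.8 CPM, 47.2 CPM of Clock against 36.9 to 37.8, and 1.50 CPM of Npas2 against 0.12 to 0.19. It had 7.12 CPM of Per2 against 24.6 to 28.1, 134.8 CPM of Nr1d2 against 178.2 to 186.1, 54.3 CPM of Dbp against 98.2 to 106.0, and 353.9 CPM of Tef against 429.7 to 439.0.

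In the non-running mice labelled noon, the day 2 session had 26.7 CPM of Per2, where the others had 9.07 to 11.1 CPM, and 70.0 CPM of Cry2 against 52.4 to 55.1. It had 259.1 CPM of Usp2 against 153.0 to 162.0, and 6.37 CPM of Wee1 against 4.29 to 4.55. In the running mice labelled noon, the day 3 session had 57.4 CPM of Per3 against 36.1 to 39.4, 132.2 CPM of Nr1d1 against 199.4 to 206.8, and 31.7 CPM of Hlf against 17.7 to 19.6.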

How the results depend on the processing

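Counts of called members depended on which days entered. For time, 0 with all 8 days, they were 18 without days 2 and 3, 17 with the share of mice in purification pool 3 added to that fit, 18 with counts per mouse without those days, 17 in cohort 2 alone, and 13 without those days in running and 13 in non-running mice. For running, 3 with all 8 days, they were 11 without days 2 and 3, 12 with counts per mouse without those days, 6 without days 1, 2 and 3, 0 in cohort 1 alone, 5 in cohort 2 alone, 6 by DESeq2, 5 by limma on session means and 1 to 5 with 1 day left out. Without the filter on low counts the time fit called 14 members, running 9, NR 2, running by NR 1, the interaction of running, NR and PT 1 and time by cohort 16; the cause was not tested. Cohort 1 alone, which holds days 2 and 3, turned the sign of the time change of 16 of 29 members relative to all 8 days, none of them called. Among these were Ciart (0.17), Clock (-0.0496), Cry2 (0.0271), Dbp (0.14), Nfil3 (-0.0833), Npas2 (-0.50), Nr1d2 (0.0044), Per2 (0.056), Per3 (0.0752), Tef (0.0644) and Usp2 (0.0208). Cry1's time change, near 0, was 0.0368 without days 2 and 3, 0.0529 in cohort 2 alone, 0.0526 with counts per mouse without those days and -0.0667 to 0.0208 with 1 day left out, and the running change of Usp2 was -0.31 to 0.0334 with 1 day left out. Alternatives for days 2 and 3 with counts per mouse, with the pool share and without day 1 were chosen after seeing the data.

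With counts per mouse, the replicate block gave 6 called members for running, as did the fit without it, and 0 for time, NR and PT. Mice with the same replicate number had a median r of 0.00795 between their deviations from group means (211 pairs, 32 of them over 0.1). Pairs with other numbers had a median r of -0.00268 (1470 pairs, 195 over 0.1). Mice of the same session, which shared day and time, reached only 0.0478 (90 pairs, 20 over 0.1). Since a known grouping gave so small a value, the check cannot decide whether the numbers pair the mice. Depth limits Npas2 most, at 0.06 to 3.62 CPM per mouse.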
